A study of Sus scrofa with 8 samples.

Results

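A set of 9 genes of reactive gliosis and of the cytokine pathway that runs through the receptor subunit gp130 to the transcription factor STAT3 were followed in pig retina by snRNAseq: GFAP, VIM, STAT3, SOCS3, OSMR, IL6ST, LIFR, LIF and JAK2. They were chosen by name, with earlier results of these data known, as 9 of the 35683 genes listed in the files. Their raw UMIs, the counted RNA molecules, were summed per retina, first over Müller cell and astrocyte nuclei and then over the other cell classes. The comparison at each week was AAV-injected against vehicle-injected retinas.

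The animals were female Yucatan minipigs aged 3 to 5 months at purchase. The AAV-injected arm received AAV2.7m8/CAG-GFP, a capsid variant of AAV2 that carries a GFP gene under the ubiquitous CAG promoter, into the vitreous of both eyes, and the other arm received vehicle. Every animal of both arms had also been given intravitreal Vitrase, a hyaluronidase, before dosing, and intramuscular methylprednisolone every week, so the controls were steroid-treated too. At week 2 the retinas were both eyes (OS, left, and OD, right) of 1 AAV-injected animal (7221) and of 1 vehicle-injected animal (7222). At week 4 only left eyes were used, from AAV-injected animals 7248 and 7249 and from vehicle-injected animals 7250 and 7251. The treatment protocol in the sample records ties the week of sacrifice to inflammatory responses. As a reason for the time of sacrifice, the study's methods name inflammation only for later animals that were sacrificed ahead of schedule. Each group carried its own batch label. Treatment cannot be told apart from batch.

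GFAP and vimentin are intermediate filament proteins of glia, and GFAP is the classical marker of reactive gliosis: astrocytes carry it in the resting retina, while Müller cells, the radial glia that span the retina, take it up after injury. Cytokines of the IL-6 family, such as LIF and oncostatin M, bind receptors that share gp130, the product of IL6ST. The receptor-bound kinases, JAK2 among them, then phosphorylate STAT3, which drives its own gene, GFAP and SOCS3, and SOCS3 in turn blocks the receptor complex.

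Of 388491 barcodes, 350544 were kept as nuclei, among them 39721 Müller cell and 2813 astrocyte nuclei. The total per retina lay between 121544835 and 173614051 UMIs. Between 486 and 774 barcode sequences were shared by any pair of retinas. The glial classes were told apart by few of their markers. Over all retinas PAX2, the retinal astrocyte factor, stood at 855 UMIs per 1000000 UMIs (CPM) in astrocyte nuclei and 1.78 in Müller nuclei, and RLBP1, a retinoid-binding protein of Müller cells, at 161 and 664. The other 4 astrocyte markers stood at 9.41 CPM or less in astrocyte nuclei, and the Müller marker SLC1A3, a glutamate transporter, was as high there (1100 CPM) as in Müller nuclei (1082). Of the astrocyte nuclei 6.47% were also gated as astrocytes by a marker score alone, an alternative gate, and 62.6% were gated by it to another class. At week 4, Müller nuclei made up 4.74% and 1.78% of nuclei in the AAV-injected animals against 13.6% and 16.6% in the vehicle-injected animals, and their median depth was 4965 and 5199 UMIs against 2067 and 1865. The mitochondrial share of UMIs over all barcodes of a retina was 0.209% and 0.144% against 0.880% and 0.629%, and its part in the results below was not tested. Levels are therefore given as CPM of the class, and also per nucleus for genes that fell in glia at week 4 on the CPM scale.

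In Müller nuclei at week 4, 7 of the 9 genes rose in AAV-injected animals and none fell: GFAP, VIM, OSMR, IL6ST, LIF, STAT3 and SOCS3. Over all 18529 genes tested in this class, 13.3% rose and 13.0% fell. LIFR and JAK2 did not pass the test. LIF and SOCS3 passed the filter on low counts only through the AAV-injected animals, so they could only be called higher. The median log2 fold change of the 9 genes, LIF and SOCS3 included, was 1.19, beside 0.01 over all genes. It would be lower without LIF and SOCS3.

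GFAP showed a wider gap than VIM, the other filament gene among the 9. The gene lies at chr12:18456268-18466594 of Sscrofa11.1, on the plus strand. In Müller nuclei it stood at 390 and 280 CPM in AAV-injected animals 7248 and 7249, and at 42.1 and 115 in vehicle-injected animals 7250 and 7251. The means were 335 ± 77.7 and 78.6 ± 51.7 (SD, n = 2 animals each). Both AAV-injected animals were above both vehicle-injected ones, and the vehicle-injected animals stood further apart, as a ratio, in GFAP than in VIM, OSMR, IL6ST or STAT3. The log2 fold change was 2.12 (SE 0.41, adjusted p = 0.00907, edgeR's quasi-likelihood test). It passed in each alternative run, with log2 fold changes from 1.29 with the marker score alone, and 1.54 without animal 7250, to 3.02 without animal 7251. The share of Müller nuclei with at least 1 GFAP UMI was 60.9% and 51.9% against 7.82% and 15.3%, and after each nucleus was thinned to 1000 UMIs it was 26.7% and 20.1% against 3.86% and 8.77%. Of rod nuclei, 0.805% and 0.530% had a GFAP UMI in AAV-injected animals and 0.431% and 0.809% in vehicle-injected animals. Rod nuclei were shallower than Müller nuclei, at median depths of 1910 and 2164.5 against 1457 and 1491 UMIs. Whether the GFAP UMIs in rod nuclei were free RNA was not tested. In endothelial nuclei, assigned but not tested, GFAP was also higher, at 115 and 68.7 CPM against 7.11 and 32.1, with a GFAP UMI in 27.2% and 21.9% of nuclei against 2.99% and 8.87%. Mural nuclei, 34 and 29 in the AAV-injected animals, held 226 and 0 CPM against 0 and 37.3. The part of RNA from other cells in the Müller and vascular values was not tested.

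Markers of other cell types were summed in the same Müller nuclei. The 5 astrocyte markers found in the files summed to between 4.32 and 7.46 CPM in Müller nuclei in AAV-injected animals and to between 12.05 and 14.8 in vehicle-injected animals at week 4. The 6 Müller markers found were all detected and summed to between 1794 and 1907 against 2813 and 2823, and the 8 rod markers to between 809 and 894 against 2205 and 2481. The 12 lymphocyte markers summed to between 91.6 and 96.8 against 49.8 and 64.5 and the 8 microglial markers to between 33.2 and 35.7 against 25.2 and 30.6. The part of these cell types in the glial results was not tested.

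VIM (chr10:43516441-43526172, plus strand) rose with a smaller fold. It stood at 146 and 134 CPM in the AAV-injected animals and at 87.2 and 68.2 in the vehicle-injected animals, without overlap. Its log2 fold change in Müller nuclei was 0.87 (SE 0.14, adjusted p = 0.00432).

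**Figure D1:**
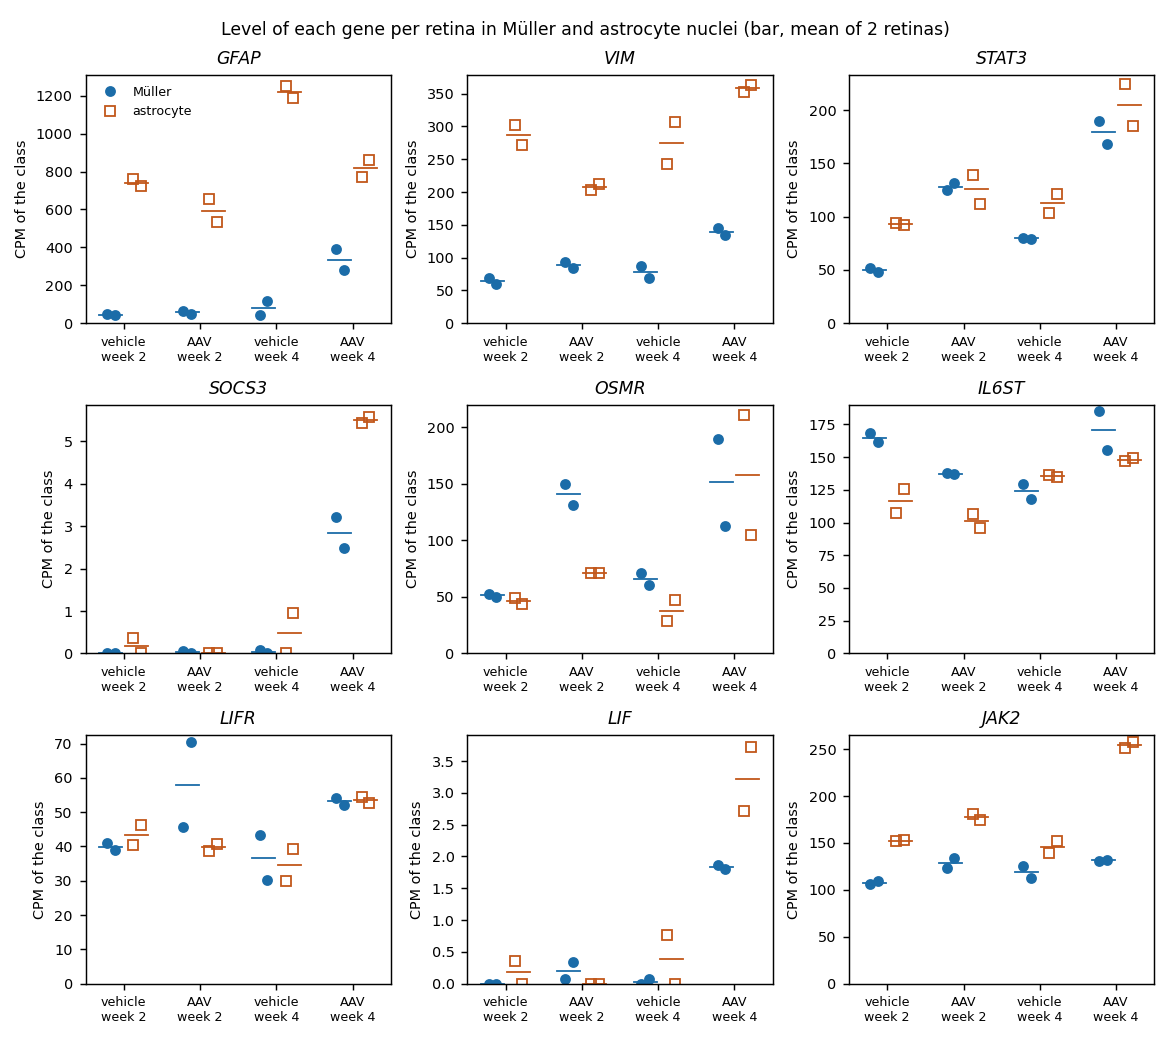
Level of each of the 9 genes in CPM of the class (vertical axis, linear from 0) by group (horizontal axis), with 1 point per retina, filled circles for Müller and open squares for astrocyte nuclei, and a bar at the mean of 2 retinas. STAT3 and OSMR in Müller nuclei are high in the AAV-injected retinas of both weeks, whereas GFAP in Müller nuclei reaches 280 and 390 only at week 4.

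Among the receptor genes, OSMR (chr16:24041312-24101842, plus strand), which encodes the oncostatin M receptor subunit that pairs with gp130, had a larger fold than IL6ST (chr16:35101304-35151832, minus strand). OSMR stood at 189 and 113 CPM in Müller nuclei in AAV-injected animals and at 70.9 and 60.7 in vehicle-injected animals. The lower AAV-injected animal was still above both vehicle-injected ones, and the log2 fold change was 1.23 (SE 0.22, adjusted p = 0.00665). IL6ST stood at 185 and 156 against 130 and 118. Its groups did not overlap, and the log2 fold change was 0.49 (SE 0.12, adjusted p = 0.0247). The IL6ST call was lost without AAV-injected animal 7248 (adjusted p = 0.145) and without vehicle-injected animal 7251 (adjusted p = 0.102).

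LIFR encodes the receptor subunit that pairs with gp130 for LIF. It stood at 54.0 and 52.2 CPM in AAV-injected and at 43.2 and 30.3 in vehicle-injected animals, with a log2 fold change of 0.56 (SE 0.18, adjusted p = 0.0540). The groups did not overlap, but the gene missed the threshold. It passed in 3 alternatives: without the filter on low counts, with the marker score alone, and without animal 7250, which leaves 1 vehicle-injected animal.

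LIF (chr14:47221540-47239513, minus strand), the ligand of that pair, was close to the limit of detection in vehicle-injected retinas. In Müller nuclei 22 and 8 UMIs were counted in the AAV-injected animals at week 4, and 0 and 1 UMIs in the vehicle-injected animals. The pooled level was 1.85 against 0.0349 CPM, a ratio of 52.9 with a 95% counting interval from 8.79 to 2158. The edgeR test gave an adjusted p of 0.00254. In the test that left out animal 7248, LIF and SOCS3 were too low to be tested, so both calls rest on the AAV-injected retina with more Müller nuclei, 2294 against 835.

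JAK2 (chr1:216849744-217002310, minus strand), the kinase, did not differ detectably in Müller nuclei. Its level was 131 and 132 CPM in AAV-injected and 125 and 113 in vehicle-injected animals. The log2 fold change was 0.17 (SE 0.11, adjusted p = 0.291), and both AAV-injected animals were higher by a small margin.

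STAT3 (chr12:20407316-20471091, plus strand) had the smallest adjusted p of the 9 genes in this class. It stood at 190 and 168 CPM in AAV-injected animals against 80.2 and 79.5 in vehicle-injected animals, which gave means of 179 ± 15.4 and 79.8 ± 0.488 (SD, n = 2 animals each). Its log2 fold change in Müller nuclei was 1.19 (SE 0.11, adjusted p = 0.000442), and the call held in each of the 12 alternatives run for it.

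SOCS3, the feedback inhibitor, went from almost no counts to a low level. In Müller nuclei 38 and 11 UMIs were counted in AAV-injected animals and 1 and 0 UMIs in vehicle-injected animals at week 4. The pooled level was 3.02 against 0.0349 CPM, a ratio of 86.4 with a 95% counting interval from 14.8 to 3481, and the adjusted p was 0.00121. Few nuclei carried it: 1.53% and 1.32% of Müller nuclei had a SOCS3 UMI in the AAV-injected animals.

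STAT3 binds palindromes of the form TTCNNNGAA, and the stricter form TTCCNGGAA is contained in it. Because a palindrome reads the same on both strands, 1 search covered both. In the RefSeq promoters of Sscrofa11.1, 250 bases before to 50 bases after each gene's start, the wider form occurred in 7.12% and the stricter form in 0.982% of 19559 protein-coding genes. Of the 9 genes 8 were matched, and 1 of the 8, SOCS3, held a site. Of 48 further pathway genes matched, 8 held one, and of those 8 CEBPD is shown with SOCS3 because it had the smallest adjusted p at week 4 in both glial classes. The stretch from 250 to 101 bases before the start is printed for each, on the plus strand, with the palindrome in capitals, at chr12:3643582-3643731 for SOCS3 and chr4:79872613-79872762 for CEBPD.
SOCS3: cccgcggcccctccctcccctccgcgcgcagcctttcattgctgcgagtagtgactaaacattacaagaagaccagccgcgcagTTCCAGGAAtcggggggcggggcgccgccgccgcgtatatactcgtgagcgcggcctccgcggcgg
CEBPD: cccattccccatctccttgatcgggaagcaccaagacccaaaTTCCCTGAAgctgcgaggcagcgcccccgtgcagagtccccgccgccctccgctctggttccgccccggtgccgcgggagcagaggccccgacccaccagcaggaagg
The SOCS3 palindrome is of the stricter form and starts 166 bases before the gene's start, which lies at position 3643832 of chromosome 12. The CEBPD palindrome is of the wider form and starts 208 bases before position 79872863 of chromosome 4. These matches describe the letters of the window and were not tied to binding in these retinas.

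In astrocyte nuclei at week 4, OSMR, JAK2, STAT3 and SOCS3 rose in AAV-injected animals and GFAP fell on the CPM scale. These were 5 calls of the 8 genes tested, in a class where 8.80% of 12363 genes rose and 7.73% fell. VIM, LIFR and IL6ST did not pass, and LIF was too low to be tested. The number of astrocyte nuclei per retina was small, from 156 to 525, and their median depth at week 4 was 9411.5 and 9910.5 UMIs in AAV-injected against 4257 and 3966 in vehicle-injected animals. With nuclei gated by their marker score alone, which left only 223 astrocyte nuclei, none of these genes passed edgeR's test and 3 had an unadjusted p under 0.05. In the main gate the 5 astrocyte markers found, all detected, summed to between 764 and 817 CPM in AAV-injected and between 788 and 1131 in vehicle-injected animals. The 6 Müller markers summed to between 1466 and 1666 against 1727 and 1902, the 8 rod markers to between 527 and 972 against 1775 and 1921, and the 8 microglial markers to between 17.4 and 45.2 against 13.0 and 18.7. The part of these in the astrocyte results was not tested.

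GFAP in astrocytes depended on the scale. It stood at 773 and 859 CPM in AAV-injected animals and at 1251 and 1188 in vehicle-injected animals, without overlap and with the AAV-injected animals lower. The log2 fold change was -0.50 (SE 0.14, adjusted p = 0.0413). Per nucleus the order turned: 7.29 and 8.87 GFAP UMIs per astrocyte nucleus were counted in AAV-injected animals and 5.40 and 5.19 in vehicle-injected animals, so more GFAP RNA was counted per nucleus but it made up less of the nucleus's RNA. The share of astrocyte nuclei with a GFAP UMI followed the per-nucleus scale before thinning, at 89.7% and 92.9% against 85.8% and 81.3%, and the CPM scale after thinning to 1000 UMIs, at 46.4% and 49.4% against 60.0% and 55.8%. The call was also lost with DESeq2 (adjusted p = 0.0919), with all barcodes (adjusted p = 0.0656) and without animal 7248, 7249 or 7250, with adjusted p between 0.0614 and 0.225.

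**Figure D2:**
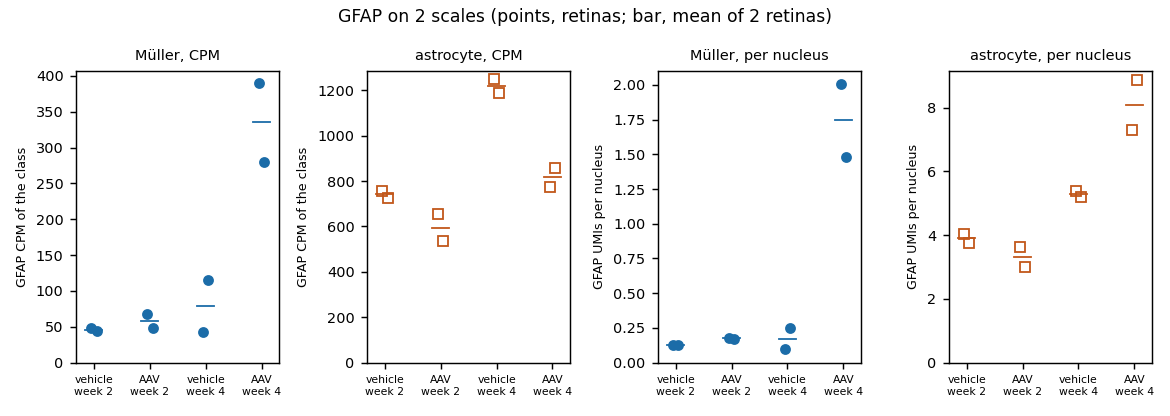
GFAP in Müller and astrocyte nuclei in CPM of the class (left pair of panels) and per nucleus (right pair), with 1 point per retina and a bar at the mean of 2 retinas, on linear axes from 0. In Müller nuclei the AAV-injected retinas of week 4 are highest on both scales, whereas in astrocyte nuclei they are below the vehicle-injected retinas of week 4 in CPM and above them per nucleus.

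VIM in astrocyte nuclei stood at 353 and 364 CPM in AAV-injected and 243 and 307 in vehicle-injected animals. The groups did not overlap, and the log2 fold change was 0.46 (SE 0.16, adjusted p = 0.0808).

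OSMR had the largest called fold of the 9 genes in astrocyte nuclei apart from SOCS3. Its level was 211 and 104 CPM in AAV-injected animals and 28.4 and 47.5 in vehicle-injected animals, so the AAV-injected animals differed widely from each other while both stayed above the controls. The log2 fold change was 2.11 (SE 0.35, adjusted p = 0.00469). IL6ST stood at 147 and 149 against 137 and 134 (log2 fold change 0.21, SE 0.14, adjusted p = 0.361), and LIFR at 54.4 and 52.8 against 29.9 and 39.4 (log2 fold change 0.69, SE 0.22, adjusted p = 0.0604).

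JAK2 rose in astrocyte nuclei. It stood at 251 and 258 CPM in AAV-injected and at 140 and 152 in vehicle-injected animals, with a log2 fold change of 0.88 (SE 0.14, adjusted p = 0.00469). STAT3 stood at 225 and 185 against 104 and 122. Both animals of each pair kept to their side, and the STAT3 log2 fold change in astrocyte nuclei was 0.95 (SE 0.16, adjusted p = 0.00617).

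SOCS3 was counted at 16 and 9 UMIs in astrocyte nuclei of AAV-injected animals and at 0 and 2 UMIs in vehicle-injected animals, a pooled ratio of 9.29 with a 95% counting interval from 2.32 to 81.0 and an adjusted p of 0.0243. LIF was counted at 8 and 6 against 1 and 0 UMIs, a ratio of 10.4 with an interval from 1.58 to 440. The low numbers set these wide intervals, which cover counting error only. In astrocyte nuclei too, SOCS3 passed the filter on low counts only through the AAV-injected animals. The SOCS3 call was lost without AAV-injected animal 7249 (adjusted p = 0.134), without vehicle-injected animal 7250 (adjusted p = 0.154) and with all 6 animals in the fit (adjusted p = 0.0675). Without 7248, without 7251 and under the stricter gate it was too low to be tested, and DESeq2 gave no adjusted p, so no fit that left out an animal kept the call.

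The difference between the classes was itself tested at week 4, in a fit of both classes with the animal as a block that was added after the opposite signs of GFAP had been seen. The fold change of GFAP was lower in astrocytes than in Müller cells by 2.69 on the log2 scale (SE 0.37, adjusted p = 0.00121), and that of JAK2 was higher by 0.77 (SE 0.17, adjusted p = 0.0212). These were 2 of the 9 genes, with 3.44% of 15998 genes called higher and 1.78% called lower. OSMR missed the threshold (log2 difference 0.91, SE 0.26, adjusted p = 0.0670), and its log2 difference was 1.49 without animal 7251. The JAK2 difference was lost without animal 7248, 7249 or 7250, with adjusted p between 0.0866 and 0.123, and the GFAP difference was kept without each of the 4 animals.

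The rest of the axis was read from 4 lists of other genes at week 4. Beside the counts of each list, 13.3% of all genes tested rose and 13.0% fell in Müller nuclei. In astrocyte nuclei 8.80% rose and 7.73% fell. Of 11 tested ligand, receptor and kinase genes in Müller nuclei 4 rose and none fell, with a median log2 fold change of 0.05 beside 0.01 over all genes. The 4 were CLCF1, IL6 and the receptor genes IL6R and IL27RA, the last 2 named after their values had been seen. CLCF1, a ligand of the ciliary neurotrophic factor receptor, stood at 8.72 and 6.10 CPM in AAV-injected and 0.932 and 2.32 in vehicle-injected animals (log2 fold change 2.24, adjusted p = 0.00797), a call lost without animal 7248 (adjusted p = 0.0627). IL6 was at 15 and 5 against 2 and 3 UMIs (adjusted p = 0.0117), and its call was lost with DESeq2 (adjusted p = 0.128) and without 7249, 7250 or 7251, with adjusted p between 0.0542 and 0.0790, and it was too low to be tested without 7248. In astrocytes 2 of 7 rose, CLCF1 and IL6R, and CNTFR, the receptor subunit that binds CLCF1, fell: it stood at 4.42 and 5.59 against 12.3 and 14.4 CPM (log2 fold change -1.37, SE 0.38, adjusted p = 0.0408). Per nucleus the CNTFR groups overlapped, at 0.0417 and 0.0577 against 0.0530 and 0.0629 UMIs. CLCF1 and IL6R in astrocytes, and IL6 in Müller nuclei, passed the filter on low counts only through the AAV-injected animals. They could therefore only be called higher. CNTFR would not have passed that filter on the AAV-injected animals alone. The CNTFR and IL6R calls in astrocytes were lost without any 1 of the 4 animals, with adjusted p between 0.0607 and 0.255, and DESeq2 called no gene of this list there. CLCF1 had an adjusted p of 0.0946 with DESeq2 and was too low to be tested without 7248, so edgeR called none of the list without that animal.

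Of 15 STAT3 target genes tested in Müller nuclei 11 rose and 1 fell, which was VEGFA, the vascular growth factor, also named after its value had been seen (log2 fold change -0.98, adjusted p = 0.0153; lost without animal 7248), with a median log2 fold change of 1.03. Per nucleus the VEGFA groups overlapped in Müller cells, at 0.120 and 0.121 against 0.134 and 0.0779 UMIs. In astrocytes 5 of 13 rose and none fell, with a median of 0.98 beside 0.00 over all genes. VEGFA lay at the threshold there (log2 fold change -1.96, adjusted p = 0.0501) and was called lower in 6 of 12 alternatives, DESeq2 among them, and with the marker score alone none of 3 tested was called. CEBPD, a transcription factor induced by STAT3, went from 1.22 and 1.23 CPM in vehicle-injected animals to 31.2 and 21.9 in AAV-injected animals in Müller nuclei (log2 fold change 4.47, SE 0.26, adjusted p = 5e-05). In astrocytes it went from 0.767 and 1.44 to 30.6 and 30.4 (log2 fold change 4.71, SE 0.43, adjusted p = 0.00035). BCL3, a nuclear partner of NF-kB, stood at 8.04 and 5.20 against 0.574 and 0.409 in Müller nuclei, and MYC, the growth regulator, at 4.15 and 2.26 against 0 and 0.204. Both rose, with adjusted p of 0.000705 and 0.00349. BCL3, MYC and CEBPB in Müller nuclei passed the filter on low counts only through the AAV-injected animals. The same held for CEBPD, BCL3 and IL4R in astrocyte nuclei. In those classes these genes could only be called higher, and the counts and medians above include them. CEBPB, ZFP36, IL4R and JUNB rose as well, by log2 fold changes between 2.52 and 3.21, and the CEBPB call was lost without animal 7248 (adjusted p = 0.0553).

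Of the 6 STAT3 regulators tested in Müller nuclei 2 rose and none fell, with a median log2 fold change of 0.05. Over all genes there 13.3% rose and 13.0% fell. PIAS1, an inhibitor of STAT signalling named after its value had been seen, lay just outside the threshold (log2 fold change -0.34, adjusted p = 0.0525) and was called lower in 6 of 12 alternatives, while per nucleus it was higher, at 1.46 and 1.38 against 0.840 and 0.732 UMIs. SOCS1, the relative of SOCS3 that blocks JAK kinases, was counted at 18 and 4 UMIs in the AAV-injected and at 0 and 0 in the vehicle-injected animals, at least 12.9-fold higher against 3 counts over the group (adjusted p = 0.0051). With SOCS1 at that bound the list keeps its median, since the gene stays above it. SOCS1 passed the filter on low counts only through the AAV-injected animals, so it could only be called higher. The phosphatase gene PTPN11, named after its value had been seen, rose by 0.46 on the log2 scale (adjusted p = 0.0202). DESeq2 called none of the list in Müller nuclei, and without animal 7248 edgeR called none of the 5 still tested. In astrocytes none of the 4 tested passed edgeR's test, none had an unadjusted p under 0.05, and DESeq2 called none.

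Of the gliosis genes 5 of 9 tested rose in Müller nuclei (median log2 fold change 0.82) and 4 of 7 in astrocytes (median 0.88), and none fell. Over all genes 13.3% and 8.80% rose in these classes. In Müller nuclei ANXA2, a membrane-binding protein, stood at 23.9 and 21.5 CPM against 1.08 and 1.43 (log2 fold change 4.19, SE 0.23, adjusted p = 3.94e-05). NES, which encodes the filament protein nestin, stood at 5.76 and 3.84 against 0.287 and 0.954 (log2 fold change 2.99, SE 0.51, adjusted p = 0.00543), a call lost without animal 7248 (adjusted p = 0.0532). In astrocytes EDNRB, the endothelin B receptor, stood at 106 and 96.8 against 18.4 and 24.97, FGF2, a growth factor, at 719 and 1006 against 207 and 220, and CD44, the hyaluronan receptor, at 321 and 302 against 152 and 207. All 3 rose, with adjusted p of 0.000351, 0.00033 and 0.0108. ANXA2 rose in astrocytes too (log2 fold change 2.01, adjusted p = 0.00026). With the marker score alone the EDNRB, CD44 and ANXA2 calls were lost there (adjusted p = 0.0708, 0.601 and 0.0501). Of the 6 genes of the list still tested only FGF2 was called.

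**Figure D3:**
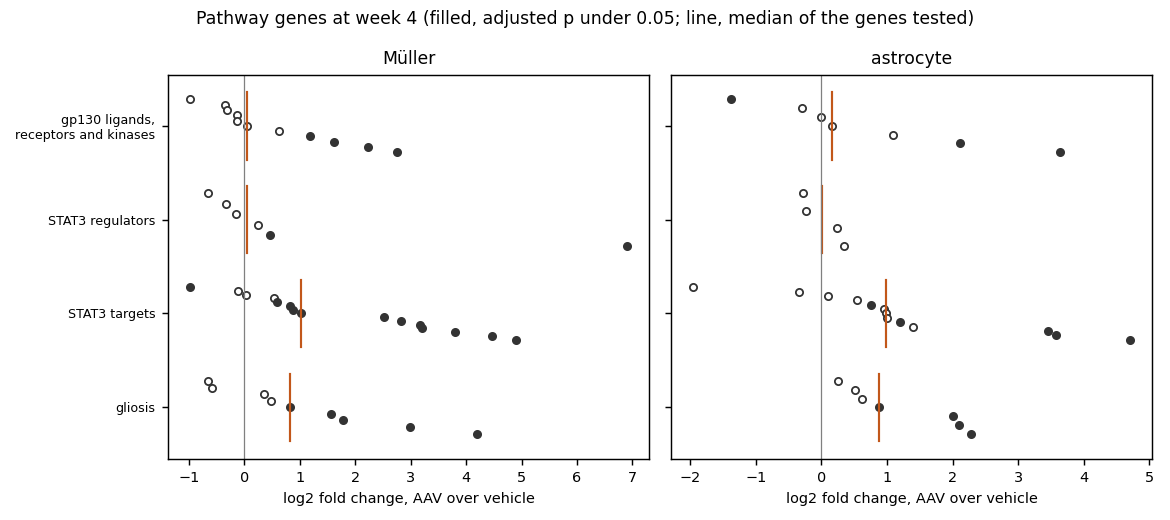
Log2 fold change of each tested gene of the 4 pathway lists at week 4 in Müller (left) and astrocyte nuclei (right), AAV-injected over vehicle-injected, with filled points for an adjusted p under 0.05 and a line at the list's median. STAT3 targets and gliosis genes have medians between 0.82 and 1.03, and the other lists have medians between 0.00 and 0.16.

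At week 2 the comparison rested on 1 animal per arm, so no test was made and the intervals cover counting error only. In Müller nuclei 2 of the 7 genes with at least 10 UMIs differed by more than 2-fold, STAT3 and OSMR, both higher in the AAV-injected animal, beside 7.41% of 23644 genes higher and 5.46% lower. STAT3 stood at 125 and 131 CPM in the eyes of the AAV-injected animal and at 51.7 and 47.9 in those of the vehicle-injected animal, a pooled ratio of 2.58 (interval 2.44 to 2.72). OSMR stood at 150 and 131 against 52.7 and 50.2, a pooled ratio of 2.69 (interval 2.55 to 2.84). For both genes both eyes of an animal lay close together. GFAP stood at 67.1 and 47.7 against 47.6 and 43.5 (ratio 1.22), and VIM at 92.8 and 84.1 against 68.7 and 59.5 (ratio 1.36). Against the sum of all 3 vehicle-injected animals the GFAP ratio was 0.916, and the STAT3 and OSMR ratios were 2.03 and 2.40.

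IL6ST was lower in the AAV-injected animal at week 2, at 138 and 137 against 168 and 161 CPM in Müller nuclei, a ratio of 0.832 (interval 0.801 to 0.865). LIFR differed between the eyes of the AAV-injected animal, at 45.6 and 70.5, against 40.9 and 39.0 in the vehicle-injected animal. JAK2 stood at 123 and 134 against 106 and 109. LIF had 1 and 7 UMIs in the AAV-injected animal and none in the vehicle-injected animal, at least 2.73-fold higher against 3 counts over the group, and SOCS3 had 1 UMI in all 4 Müller sums together. In astrocyte nuclei none of 7 genes passed 2-fold, beside 6.12% of 17489 genes higher and 5.27% lower. STAT3 there stood at 139 and 112 against 93.8 and 92.6 and OSMR at 70.8 and 71.1 against 49.0 and 43.4, both higher in the AAV-injected animal. GFAP stood at 653 and 534 against 758 and 724 and VIM at 203 and 212 against 302 and 272, both lower in it. JAK2 stood at 181 and 175 against 152 and 153.

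Whether the AAV effect differed between the weeks was tested as an interaction over the 6 animals. None of the 9 genes passed in Müller nuclei and none of those tested passed in astrocytes with edgeR or DESeq2, while 2 and 4 had an unadjusted p under 0.05 in edgeR and 1 and 2 in DESeq2. Over all genes 1.44% were called higher and 2.33% lower at week 4 in Müller nuclei, and 1.11% and 1.07% in astrocytes. The 2 with an unadjusted p under 0.05 in Müller nuclei were GFAP (log2 difference 1.88, SE 0.66, adjusted p = 0.153) and IL6ST (0.81, SE 0.21, adjusted p = 0.0748), and the STAT3 value was -0.12 (SE 0.20, adjusted p = 0.791). The spread came from the week 4 animals only, so the single week 2 animals were assumed to vary like them, and week cannot be told apart from animals 7221 and 7222. Over the alternative runs the log2 difference ranged from 1.33 to 2.79 for GFAP and from 0.69 to 0.92 for IL6ST in Müller nuclei. In astrocytes it ranged from 0.94 to 2.00 for OSMR and from 0.85 to 1.17 for VIM. Each of these 4 passed in at least 1 fit without a week 4 animal. Such a fit leaves 1 animal in that arm at week 4 and takes its spread from the other arm alone, so those passes are not read as results.

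Among the 9 genes, SOCS3 was tested in only 4 classes (called in 3) and LIF in 1. STAT3, tested in all 9 classes, was called in more classes than any other of the genes. At week 4 it rose in 8 of 9 classes, cones being the exception, with log2 fold changes of 1.19 in rods, 1.17 in bipolar, 1.04 in amacrine, 1.46 in horizontal and 1.32 in ganglion cells (RGCs), and 0.97 for microglia or macrophages, beside the glial values above. The share of all genes called higher was 7.14% in rods, 1.85% in bipolar, 1.85% in amacrine cells, 3.02% in horizontal and 2.95% in ganglion cells, 5.85% among microglia or macrophages, and 1.52% in cones. Among microglia or macrophages 3.39% were called lower. In rods STAT3 stood at 121 and 97.3 CPM in AAV-injected and 49.0 and 51.1 in vehicle-injected animals, and in RGCs at 118 and 108 against 52.6 and 42.2. In cones it stood at 68.2 and 47.9 against 45.6 and 41.4 (log2 fold change 0.46, SE 0.16, adjusted p = 0.1998). The call was lost in horizontal cells without animal 7251 and in microglia or macrophages without 7248, without 7251 and under the stricter gate. In lymphocyte nuclei at week 4, assigned but not tested, STAT3 stood at 253 and 205 CPM against 51.0 and 53.8. IL6ST stood there at 263 and 194 against 91.5 and 76.9. SOCS3 had 18 and 8 UMIs there and LIF 5 and 5, with 0 in the vehicle-injected animals. This class held 1806 and 1658 nuclei against 198 and 219, and the part of other cells was not tested.

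**Figure D4:**
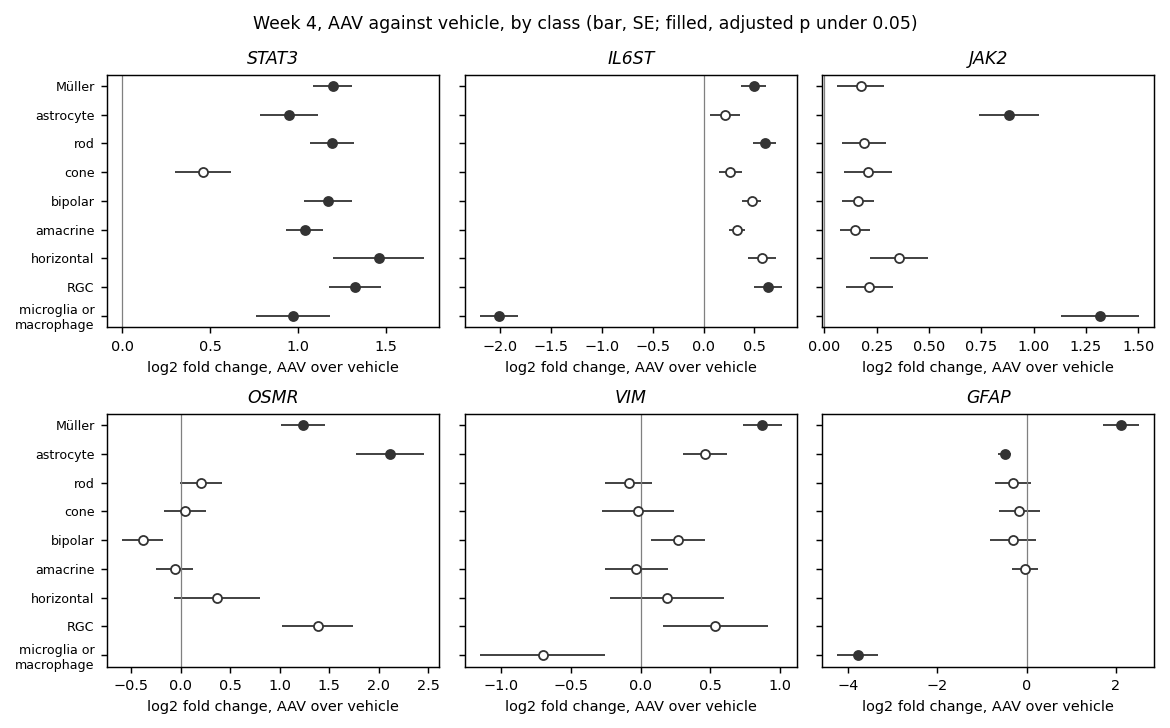
Log2 fold change at week 4, AAV-injected over vehicle-injected, of 6 of the 9 genes by class (rows), with bars for 1 SE and filled points for an adjusted p under 0.05. STAT3 lies right of 0 in all 9 classes, between 0.46 and 1.46, while the filled points of GFAP lie on both sides, at 2.12 in Müller nuclei and at -0.50 and -3.79 in astrocytes and in microglia or macrophages.

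Over the 7 classes other than Müller cells and astrocytes there were 13 calls of these genes, the STAT3 calls above among them. They are to be read beside the share of all genes called in each class, given above. Each was higher in AAV-injected animals, except IL6ST and GFAP among microglia or macrophages. IL6ST rose in rods (log2 fold change 0.60, adjusted p = 0.0215) and RGCs (0.63, adjusted p = 0.0196). In rods it stood at 125 and 108 against 84.8 and 75.7 CPM, and in RGCs at 174 and 141 against 99.1 and 113. The rod call was lost without animal 7251 and the RGC call without 7248. SOCS3 rose in rods, with 56 and 41 UMIs in AAV-injected and 0 and 1 UMIs in vehicle-injected animals (adjusted p = 0.0199). It passed the filter on low counts there only through the AAV-injected animals, so it could only be called higher. At 1.14 and 0.618 CPM it was lower there than in Müller nuclei of the same animals, at 3.22 and 2.49, and the rod call was lost without 7250. Only 0.248% and 0.154% of rod nuclei had a SOCS3 UMI in the AAV-injected animals, and the part of free RNA in this value was not tested. LIFR rose in horizontal cells, from 39.7 and 30.3 to 76.2 and 62.4 CPM (log2 fold change 0.94, adjusted p = 0.0435), a call lost with DESeq2 (adjusted p = 0.119), under the stricter gate and without any of 3 animals.

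OSMR, the receptor called in both glial classes, was low in neurons. In RGCs it stood at 12.3 and 8.93 CPM against 3.73 and 4.69 (log2 fold change 1.38, SE 0.36, adjusted p = 0.0508), and in rods at 4.47 and 4.39 against 3.83 and 4.23. OSMR was also higher in mural nuclei at week 4, assigned but not tested, at 262 and 145 CPM against 25.4 and 14.3. These values rest on 51 and 20 UMIs against 3 and 5, and the part of RNA from other cells was not tested. VIM passed in Müller nuclei and in no other class of the 9.

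Microglia or macrophages stood apart in IL6ST. It stood at 105 and 121 CPM in AAV-injected animals and at 572 and 438 in vehicle-injected animals at week 4 (log2 fold change -2.01, SE 0.19, adjusted p = 0.000712), and at 301 and 309 against 646 and 745 at week 2. JAK2 rose from 293 and 345 to 639 and 799 (log2 fold change 1.32, SE 0.19, adjusted p = 0.00468). GFAP fell there from 83.1 and 46.6 to 3.77 and 4.63 (adjusted p = 0.00227), on 17 and 10 UMIs in the vehicle-injected animals, and the call was lost without either AAV-injected animal. This class held 2040 and 1239 nuclei in AAV-injected and 124 and 121 in vehicle-injected animals at week 4. Its 12 lymphocyte markers summed to between 1818 and 2012 CPM in AAV-injected animals, all 12 detected, and to between 97.7 and 126 in vehicle-injected animals, 6 detected. Its 5 astrocyte markers summed to between 1.46 and 3.96 against 4.66 and 44.0, and the part of other cells in these 3 values was not tested. OSMR with 64 UMIs and SOCS3 with 54 had none in the vehicle-injected animals, whose class total of 419046 UMIs is too shallow for a difference to be detectable.

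Of the ligands, IL27 was seen in no glial sum but in microglia or macrophages, where 23 and 21 UMIs were counted in AAV-injected animals at week 4, 1 and 6 at week 2, and none in vehicle-injected retinas. OSM, the ligand of OSMR, had 4 and 5 UMIs in that class at week 4 and none in vehicle-injected retinas, and in Müller nuclei it had 3 and 1 against 2 and 5. At the depth of the vehicle-injected sums these zeros do not set a fold. Cardiotrophin 1 (CTF1) stood at 2.88 and 3.62 against 3.30 and 3.75 CPM in Müller nuclei and did not pass (adjusted p = 0.780). CNTF, the ciliary neurotrophic factor, had 27 and 5 against 14 and 21 UMIs there (adjusted p = 0.344), and IL11 had 3 and 2 against 2 and 2. In astrocyte nuclei IL6 had 5 and 5 against 0 and 0 UMIs, CLCF1 24 and 11 against 0 and 2, CNTF 9 and 4 against 3 and 4, and CTF1 2 and 5 against 2 and 4. OSM and IL11 had at most 1 UMI in any astrocyte sum of week 4.

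In the 4 vehicle-injected retinas the genes differed in where they were highest among the 9 classes tested, which leave out the mural, endothelial, lymphocyte and pigment epithelium nuclei. GFAP was highest in astrocytes (724 to 1251 CPM, median 973), above Müller nuclei (42.1 to 115, median 45.5), which overlapped microglia or macrophages (11.6 to 83.1), and the 6 neuronal classes lay between 1.05 and 7.51. VIM had the same first 2 classes, at 243 to 307 in astrocytes and 59.5 to 87.2 in Müller nuclei. OSMR was highest in Müller nuclei (50.2 to 70.9), just above astrocytes (28.4 to 49.0), and reached at most 6.70 in any neuronal class. IL6ST was highest in microglia or macrophages (438 to 745), then in horizontal cells (171 to 201), and Müller nuclei (118 to 168) overlapped astrocytes (107 to 137).

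LIFR was highest in RGCs (58.7 to 89.9), which overlapped rods (51.6 to 60.5), and Müller nuclei stood at 30.3 to 43.2. Mural nuclei, outside the 9 classes, held LIFR at 72.3 to 86.1 CPM. JAK2 was highest in cones (312 to 353), which overlapped microglia or macrophages (293 to 345), and lowest in Müller nuclei (106 to 125), which overlapped horizontal cells (125 to 131). STAT3 was highest in microglia or macrophages (105 to 156), which overlapped astrocytes (92.6 to 122). By median it was lowest in cones (33.3 to 45.6), which overlapped horizontal cells (33.2 to 55.7). SOCS3 and LIF were counted at under 1 CPM in each of the 9 classes of every vehicle-injected retina. In shallow classes a count of 0 does not set that bound. In horizontal nuclei of animal 7250, for example, 3 counts amounted to 1.29 CPM.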

How the data were processed

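Nuclei were sorted from 8 frozen retinas of 6 minipigs and run on the 10x GEM-X 3′ v4 platform, 4 lanes per retina. The authors aligned reads with Cell Ranger 8.0.0 to Sscrofa11.1 with EGFP added, and the deposited values are raw UMI counts per gene and barcode, with no normalization. 

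From these counts, barcodes were filtered by a mixture model of mitochondrial share after miQC (posterior 0.75), which removed between 6.95% and 12.9% per retina and kept nuclei of at most 0.300% to 0.581% mitochondrial UMIs, and no doublet caller was run. Nuclei were assigned to 13 classes by the likelihood of their counts under class profiles of 1300 genes, learned from marker-gated nuclei, without the 9 genes. A nucleus whose best class led the next by less than 5 log-likelihood units was left unassigned and entered no class sum. A marker score alone had been planned as the main gate and became the alternative before any test was run, since it left PAX2 at 82.5 CPM in Müller nuclei and found 223 astrocytes. Of Müller and astrocyte nuclei 2.01% and 2.74% lay near the cut. An oligodendrocyte class was dropped, and endothelial, mural, pigment epithelium and lymphocyte nuclei were assigned but not tested.

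UMIs were summed per animal and class, and week 4 groups (2 animals each) were compared with edgeR 4.0.16's two-sided quasi-likelihood test (R 4.3.3, TMM, filterByExpr, Benjamini-Hochberg over all genes tested, threshold 0.05), to which every adjusted p refers unless DESeq2 (1.42.0) is named. Week 2, with 1 animal per arm, gave values with 95% exact counting intervals. These and all intervals cover counting error only. The week 4 p-values weigh the difference between arms against the spread between 2 animals per arm, with information on spread shared over genes. A group at 0 was read as at most 3 counts. A gene with almost no counts in 1 arm enters the test through the other arm and can only be called higher there. Data were also simulated with 200 changed genes and the same fixed dispersion for every gene. The test recovered 58.6% of 2-fold and 94.8% of 4-fold changes among 18036 genes in Müller sums, with 4.49% false calls. In astrocyte sums it recovered 53.7% and 91.3% among 12015 genes, with 7.53%. The spread between real animals differs by gene, so these rates do not give the test's errors in these retinas. Alternatives were DESeq2, RLE scaling, no filter on low counts, all 6 animals in the fit, each animal left out, other nuclei filters and other gates. UMIs per nucleus and the fit of both classes were added after the data had been seen.

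The genes and lists were chosen with earlier results of these data known. Named were the 9 genes, at most 12 list genes per glial class by absolute log2 fold change among those called without overlap, every gp130 ligand except 1 not reported here, and the 3 genes most correlated with each of the 9. Of 58 genes, the 9 and those on the 4 lists, 56 were found, without LRG1 and SYNM, and 18050 listed genes had no symbol.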

Additional observations from a re-analysis of the deposited data

Results flagged for a closer look

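Several list genes passed the interaction test of edgeR between the 2 weeks over 6 animals. Week 2 had 1 animal per arm, assumed to vary like the week 4 animals, so week cannot be told apart from those 2 animals. In Müller nuclei the log2 fold change was higher at week 4 than at week 2 for CEBPD by 3.94 (adjusted p = 0.00779), BCL3 by 4.23 (adjusted p = 0.0339), IL4R by 2.97 (adjusted p = 0.0382) and CD44 by 1.10 (adjusted p = 0.0216). At week 2 CEBPD had stood at 1.74 and 1.37 CPM against 0.728 and 1.35, and BCL3 at 0.209 and 0.293 against 0.468 and 0.184, so the arms overlapped for BCL3 and not for CEBPD. The BCL3 and IL4R differences were lost without animal 7248 (adjusted p = 0.103 and 0.0973). In astrocyte nuclei it was higher at week 4 for ANXA2 by 1.61 (adjusted p = 0.0281), FGF2 by 1.61 (adjusted p = 0.0306), EDNRB by 2.15 (adjusted p = 0.0326) and CD44 by 1.59 (adjusted p = 0.0278). FGF2 had stood at 221 and 255 against 183 and 135 CPM in astrocyte nuclei at week 2, and CD44 at 170 and 101 against 256 and 207. The ANXA2, FGF2 and CD44 differences in astrocyte nuclei were lost under the stricter gate (adjusted p = 0.0515, 0.0633 and 0.0602) and that of EDNRB with DESeq2 (adjusted p = 0.0732).

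The response of GFAP, JAK2 and several list genes differed between the glial classes at week 4 in the fit of both classes. Against Müller nuclei, the log2 fold change in astrocyte nuclei was different by -2.69 for GFAP (adjusted p = 0.00121), by -2.12 for ANXA2 (adjusted p = 0.000734) and by -0.83 for CD44 (adjusted p = 0.0226). It was different by 0.64 for PIAS1 (adjusted p = 0.0362), by 0.77 for JAK2 (adjusted p = 0.0212) and by 2.99 for EDNRB (adjusted p = 0.00626). ANXA2 rose in both classes, from 1.08 and 1.43 CPM in Müller nuclei and from a higher level, 52.2 and 60.5, in astrocyte nuclei. The astrocyte call was lost with the marker score alone. The CD44 difference was lost without animal 7248, 7249 or 7251, with adjusted p up to 0.166, and that of EDNRB without 7248 (adjusted p = 0.0845).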

How the results depend on the processing

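No paired analysis was possible because the replicate numbers name different animals in each group and the labels pair none of them. The 7 calls of the 9 genes in Müller nuclei ranged from 4 to 8 without 1 animal. Without AAV-injected animal 7248 the 4 were GFAP, OSMR, STAT3 and VIM. The genes called of all tested, 4862, ranged from 2854 to 4081. In astrocyte nuclei the 5 calls became 3 with DESeq2, 0 with the marker score alone, 7 without the filter on low counts and 6 with all barcodes, where GFAP was lost and VIM and LIFR were gained, and ranged from 3 to 5 without 1 animal. The 2044 genes called of all became 1029 with DESeq2 and 121 with the marker score, and ranged from 1392 to 1829. The 13 calls in other classes ranged from 9 to 13 and the 35 on the pathway lists from 22 to 32. The 0 calls between weeks became 3 without the filter on low counts (GFAP in Müller, OSMR and VIM in astrocyte nuclei), and ranged from 0 to 3 without 1 animal. The 2 calls between classes ranged from 1 to 3. VIM in astrocyte nuclei turned to -0.29 with the marker score alone. The cause of these changes was not tested, beyond fewer animals or nuclei. At week 4, 549 single-gene results under an alternative kept direction and side of the threshold, 57 lost the call, 16 gained it and 1 turned. Depth limited SOCS3 and LIF, and every result rests on 2 animals per arm whose batch label is the group.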

Other observations

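Over the 8 retinas, the genes whose levels in Müller nuclei ran most like each of the 9 were found by Pearson's r of log2(CPM + 1) among 9145 genes, with points that share animals, depth and treatment, so r is a description only. The 3 nearest genes are given for each, except that 1 of the 3 for GFAP, SOCS3 and LIFR has no symbol in the files and is not named; for SOCS3 it ranked first (r = 0.998). STAT3 ran most like THRAP3 (r = 0.993), PPP1R12B (0.985) and IFNAR1, a type I interferon receptor subunit (0.981). OSMR ran most like ZBED6 (0.984), UMPS (0.982) and STK10 (0.980). GFAP ran most like NEK6 (0.987) and ZDHHC21 (0.977), and VIM most like IL27RA (0.987), RNF14 (0.986) and ARMC2 (0.986). IL6ST had lower values, with LYPLAL1 (0.967), ATG12 (0.958) and TMX4 (0.953). LIFR ran most like CEPT1 (0.983) and TEC (0.975), and JAK2 most like SFT2D1 (0.981), BFAR (0.977) and ADI1 (0.977). SOCS3, near 0 in all but the AAV-injected retinas of week 4, ran most like VMP1 (0.996) and PCNX1 (0.995), and LIF most like CDH2 (0.995), SULF1 (0.993) and GSPT2 (0.993).

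The share of Müller nuclei with a UMI was also higher for STAT3 and OSMR, in nuclei that were deeper. For STAT3 it was 53.9% and 50.1% in AAV-injected against 14.9% and 14.1% in vehicle-injected animals at week 4, and 16.7% and 15.1% against 7.40% and 7.34% after thinning to 1000 UMIs. For OSMR it was 50% and 36.5% against 13.7% and 10.9%, and 16.0% and 9.88% against 6.63% and 5.76% after thinning. In rod nuclei the OSMR share was 0.938% and 1.06% against 0.632% and 0.725%.

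STAT3 was also higher at week 2 in neurons of the AAV-injected animal than in those of the vehicle-injected animal. The pooled ratios lay between 1.37 in amacrine cells and RGCs and 1.44 in cones. With 1 animal per arm no test was made. In rods it stood at 56.0 and 54.0 CPM against 39.6 and 37.6, and in RGCs at 45.8 and 65.8 against 37.7 and 41.7. Vehicle-injected animal 7250 of week 4 held STAT3 at 55.7 CPM in horizontal cells, above both eyes of the AAV-injected animal (at most 51.7). In RGCs animal 7250 stood at 52.6, above the left eye only. Animal 7251 stood at 37.3 and 42.2 in these classes, below both eyes. The vehicle-injected retinas reached at most 51.1 in rods and 45.6 in cones, also below both eyes.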
